A study of Mus musculus with 92 samples.

Results

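The 8 genes described here are Isg15, Usp18, Ifit1, Ifit3, Oas1a, Irf7, Bst2 and Zbp1, interferon-stimulated genes that were chosen by name in the 4 raw count tables of the series. All 8 were found among the 54532 genes of the tables, and their counts were followed across all 92 libraries, which fall into 21 groups. The study deleted Eif4g2, a translation initiation factor related to eIF4G, from the mouse intestine and from cultured intestinal epithelium, and in separate cultures blocked the histone acetyltransferases p300 and CBP with the compound A-485.

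Interferon-stimulated genes are switched on when an interferon binds its receptor at the cell surface. Type I and type III interferons (receptor subunits Ifnar1 and Ifnar2, and Ifnlr1 with Il10rb) activate the kinases Jak1 and Tyk2, and a complex that includes Stat2 and Irf9 then binds the interferon-stimulated response element (ISRE) of target promoters. In the intestine, type III interferon acts mainly on epithelial cells, and a low tonic expression of interferon-stimulated genes is known in the mature epithelium of mice that carry a microbiota. Isg15 encodes a ubiquitin-like modifier, and Usp18 the protease that removes it and also damps receptor signalling. Ifit1 and Ifit3 encode RNA-binding antiviral proteins, Oas1a an enzyme that is activated by double-stranded RNA, Irf7 a transcription factor that amplifies interferon production, Bst2 (tetherin) a membrane protein that holds budding virus particles, and Zbp1 a sensor of Z-form nucleic acid that can start cell death.

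All animals and cultures carried an inducible Cre (CreER), so no group was free of it. Rosa26-CreER mice, whose Cre is made in all tissues, were sampled on day 9 after the first tamoxifen dose as Eif4g2 flox/flox (homozygous; crypts n = 4, villi n = 5) or Eif4g2 flox/+ (heterozygous; crypts n = 5, villi n = 5). Vil1-CreER mice, whose Cre is driven by an intestinal epithelial promoter, were sampled 3 months after tamoxifen (100 mg/kg, daily on 4 consecutive days) as homozygous (crypts n = 3, villi n = 6) or heterozygous (crypts n = 4, villi n = 4). Heterozygous mice received tamoxifen as well and lost 1 copy of Eif4g2, so they are not untreated wild-type animals. A first set of Rosa26-CreER flox/flox organoids received DMSO or 0.5 µM 4-hydroxytamoxifen (4-OHT) for 24 h and was collected on day 6 (3 lines each). In a second set, flox/flox, flox/+ and CreER-only (Eif4g2 +/+) organoids all received 4-OHT (4 lines each). Fetal intestinal spheroids, cultures of fetal epithelium, were flox/flox (6 lines) or flox/+ (5 lines), all Rosa26-CreER, each with DMSO and with 4-OHT, and some line names share a number prefix whose meaning is not given. For A-485, 4 organoid lines were cultured for 4 days with DMSO or with the compound at 3, 5 or 10 µM. The series text calls them wild-type, but by the labels line S6026 was Eif4g2 +/+ and lines S6070, S6074 and S6076 were flox/flox with no 4-OHT, and line S6070 also belongs to the first organoid set. All cultures were kept in ENR medium (EGF, Noggin and R-spondin).

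RefSeq promoters (build GRCm38.p6, 250 bases before to 50 after the start) were at hand for 6 of the 8 genes; Usp18 and Zbp1 had none in the table. The ISRE core was searched on both strands as GAAA, any 2 bases and GAAA again, and it was present in 5 of the 6 promoters against 3.44% of all 32851 promoters of the same length. The stretches below hold all matches in these 5 genes with 20 bases on either side. They are shown because they are the sequence that the 5 promoters have in common, and capitals mark bases inside an ISRE core match, where overlapping matches run together.
Isg15: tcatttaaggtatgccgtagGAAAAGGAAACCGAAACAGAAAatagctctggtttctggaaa
Ifit1: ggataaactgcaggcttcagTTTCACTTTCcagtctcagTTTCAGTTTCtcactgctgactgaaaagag
Ifit3: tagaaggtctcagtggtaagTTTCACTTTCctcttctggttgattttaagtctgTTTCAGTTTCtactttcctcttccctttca
Oas1a: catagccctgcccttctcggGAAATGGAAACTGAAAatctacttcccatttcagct
Bst2: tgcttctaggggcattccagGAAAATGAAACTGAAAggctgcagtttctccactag
The sequences are written along the strand of the gene. Isg15 lies at chr4:156200855-156200916 (minus strand), Ifit1 at chr19:34640765-34640833 (plus), Ifit3 at chr19:34583353-34583436 (plus), Oas1a at chr5:120907510-120907565 (minus) and Bst2 at chr8:71537567-71537622 (minus). Isg15 held 3 overlapping matches and the other 4 genes held 2 each; in Ifit1 and Ifit3 the matches lie on the opposite strand (TTTCACTTTC and TTTCAGTTTC), and both genes carry the same pair. The match nearest to a start was that of Oas1a, which ended 5 bases before it. Only the first promoter listed for each of these genes was searched, and that of Irf7 held no match to these letters in this window. Such matches describe the sequence and do not show binding.

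Library totals ran from 8652040 to 37611126 counts, and no 2 libraries of a group agreed within sampling noise. Eif4g2 itself was lower in every deleted library than in every control library of its comparison, for example 91.8 to 131 CPM (CPM being reads scaled to the size of the library) in homozygous against 441 to 465 CPM in heterozygous Rosa26-CreER crypts. Summed crypt markers ran from 16770 to 22442 CPM in heterozygous and from 1716 to 7706 CPM in homozygous Rosa26-CreER crypts. Summed enterocyte markers ran from 1318 to 2193 CPM and from 1651 to 4673 CPM in the same order, ranges that overlapped. In homozygous villi they ran from 43029 to 70078 CPM. Whether the crypt libraries held fewer crypt cells or less marker RNA per cell was not tested. Reads of the Y-linked gene Ddx3y were present in 5 of 5 heterozygous but 1 of 4 homozygous crypt libraries and in 5 of 5 against 2 of 5 villus libraries of the Rosa26-CreER mice, so sex was not balanced there. Levels below are CPM after scaling all 92 libraries together with TMM, a method that adjusts for the RNA composition of a library. Fold changes are log2 values from edgeR's quasi-likelihood F-test with Benjamini-Hochberg adjustment over all tested genes, and a gene rose or fell where its adjusted p was under 0.05. That test gives no SE. The SE beside a fold change was derived as its absolute value divided by the square root of the F statistic.

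**Figure D1:**
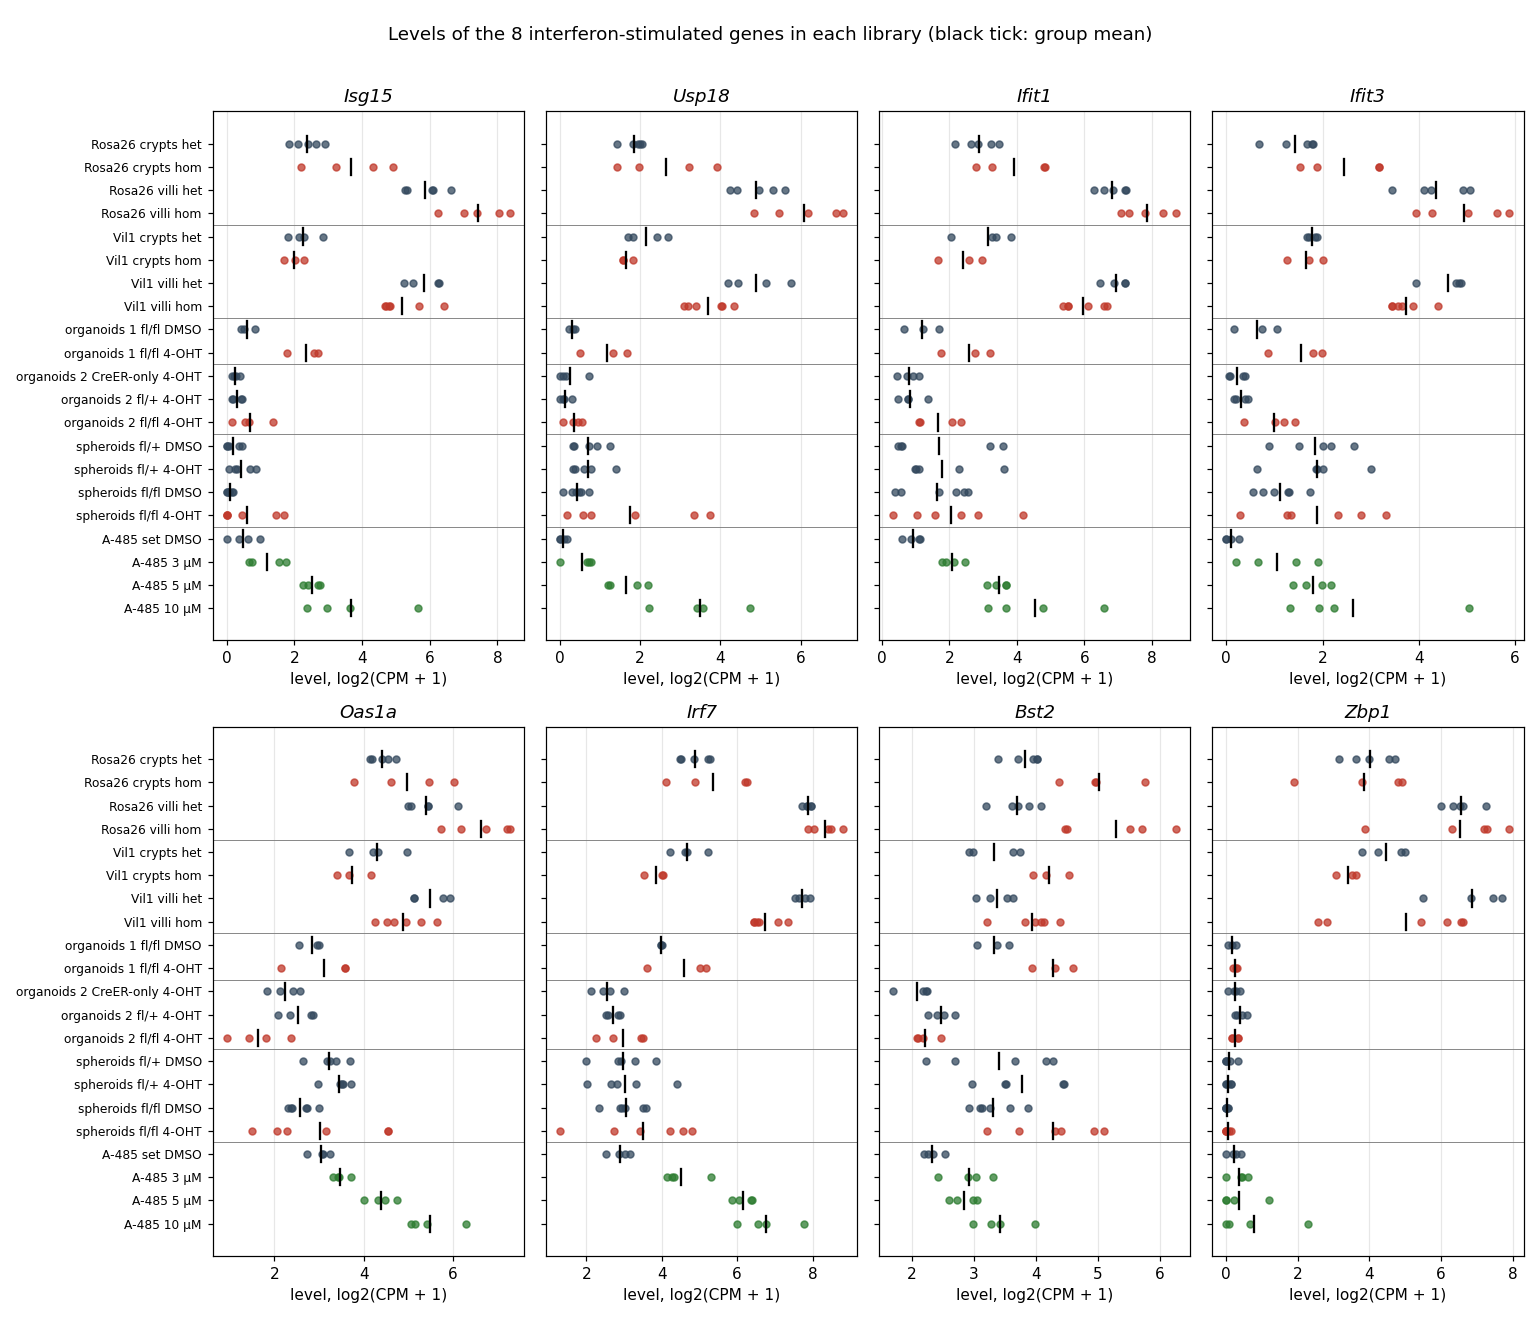
Level of each gene in each of the 92 libraries as log2(CPM + 1), with 1 panel per gene and 1 line per group; points are libraries, black ticks are group means, red marks homozygous or flox/flox 4-OHT libraries, green marks A-485 and dark blue all others. The highest library of each gene is a villus library, and Bst2 spans the narrowest range; Zbp1 is near 0 in nearly all cultures, with 3.86 CPM in line S6074 at 10 µM A-485 as its highest value there.

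The highest group mean of 7 genes was that of homozygous Rosa26-CreER villi and the highest of Zbp1 that of heterozygous Vil1-CreER villi, and the lowest mean of each gene was in a group of organoids or spheroids. Isg15 averaged 193 ± 103 CPM (SD, n = 5) in homozygous Rosa26-CreER villi, followed by 61.5 ± 24.7 (n = 5) in heterozygous Rosa26-CreER villi, 58.3 ± 20.9 (n = 4) in heterozygous and 39.7 ± 23.9 (n = 6) in homozygous Vil1-CreER villi, the last 3 of which lie within 1 SD of each other. Next came A-485 organoids at 10 µM (17.8 ± 20.9, n = 4) and homozygous Rosa26-CreER crypts (15.2 ± 11.5, n = 4), which overlap fully, and the remaining groups averaged under 6 CPM. Per kilobase of gene length, the order of the genes in heterozygous Rosa26-CreER villi was Isg15 (81.4 CPM per kb), Irf7 (61.8), Ifit1 (43.8), Zbp1 (27.4), Oas1a (22.9), Bst2 (13.6), Ifit3 (12.2) and Usp18 (11.0). In crypts of the same mice the highest per kilobase was Bst2 (14.7 CPM per kb), before Oas1a (10.8) and Irf7 (7.74), and Usp18 (0.95) was again the lowest. Zbp1 differed from the other 7 in its place of expression: its group means ran from 9.75 to 135 CPM in tissue, and all culture libraries except 2 of the A-485 set held under 1 CPM. Those 2 were line S6074 at 10 µM with 3.86 CPM and line S6076 at 5 µM with 1.31 CPM. Ifit3 and Oas1a have near-identical neighbours, Ifit3b and Oas1g, and how the counting divided reads between them is not given in the sources used here, so their levels are less certain.

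Villi against crypts asks where along the epithelium the genes are expressed, since crypts hold stem, proliferating and Paneth cells and villi mostly mature enterocytes. In all 4 groups of mice 7 of the 8 genes were higher in villi, with log2 fold changes from 1.15 to 4.19, and Bst2 was not called in any of them. Among all genes tested, 36.4% were called higher in villi in heterozygous Rosa26-CreER mice, 32.4% in homozygous Rosa26-CreER, 32.7% in heterozygous Vil1-CreER and 33.1% in homozygous Vil1-CreER mice, and 40.6%, 38.6%, 35.2% and 36.3% were called lower. Ifit1 had the largest difference in heterozygous Rosa26-CreER mice: its level was 8.38, 3.48, 6.27, 10.1 and 5.23 CPM in crypts and 149, 147, 115, 76.8 and 93.7 CPM in villi of the same 5 animals. Every villus library thus lay far above every crypt library, and the log2 fold change was 4.19 ± 0.29 (edgeR adjusted p = 8.5e-08). Its difference was 3.95 ± 0.58, 3.94 ± 0.42 and 3.93 ± 0.47 in homozygous Rosa26-CreER, heterozygous Vil1-CreER and homozygous Vil1-CreER mice. Isg15 behaved alike, with log2 differences of 3.88, 3.77, 3.98 and 3.82 in the same order of groups, and so did Irf7 with 3.07, 2.87, 3.15 and 3.10. Usp18 (3.61, 3.64, 3.21 and 2.63), Ifit3 (3.61, 2.83, 3.41 and 2.61) and Zbp1 (2.64, 2.92, 2.68 and 2.52) followed, and Oas1a had the smallest called difference (1.15, 1.67, 1.30 and 1.34).

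Bst2 stood at 13.3 ± 2.49 CPM (SD, n = 5) in heterozygous Rosa26-CreER crypts and 12.3 ± 2.94 CPM (n = 5) in the villi, with log2 differences of -0.05, 0.46, 0.11 and -0.18 over the 4 groups. Of the 16 animals with both libraries, Zbp1 was higher in villi in all but 1, a homozygous Vil1-CreER mouse with 7.41 CPM in crypts and 5.97 CPM in villi. With the animal as a block, the call for Zbp1 in homozygous Vil1-CreER mice was lost (1.58, edgeR adjusted p = 0.518, against 2.52 ± 0.92 without it, adjusted p = 0.0298), and no other call of these 4 comparisons changed. It was also lost without any 1 of the 3 homozygous crypt libraries or of villus replicates 4 and 5. Lymphocyte markers moved between crypts and villi as well, but not in 1 direction. Summed T cell markers had medians of 226 CPM in crypts and 526 CPM in villi of heterozygous Rosa26-CreER mice and of 348 and 999 CPM in heterozygous Vil1-CreER mice. In homozygous mice the villi held less, with medians of 532 CPM in crypts and 263 CPM in villi for Rosa26-CreER and 389 and 196 CPM for Vil1-CreER. Median B cell sums were lower in villi of all 4 groups (65.8 and 27.8 CPM in crypts and villi of heterozygous Rosa26-CreER mice, 188 and 83.2 CPM in homozygous, 144 and 18.9 CPM in heterozygous Vil1-CreER and 553 and 24.7 CPM in homozygous mice). Their part in the differences was not tested. In bulk RNA, fewer cells of a type and less RNA per cell cannot be told apart.

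**Figure D2:**
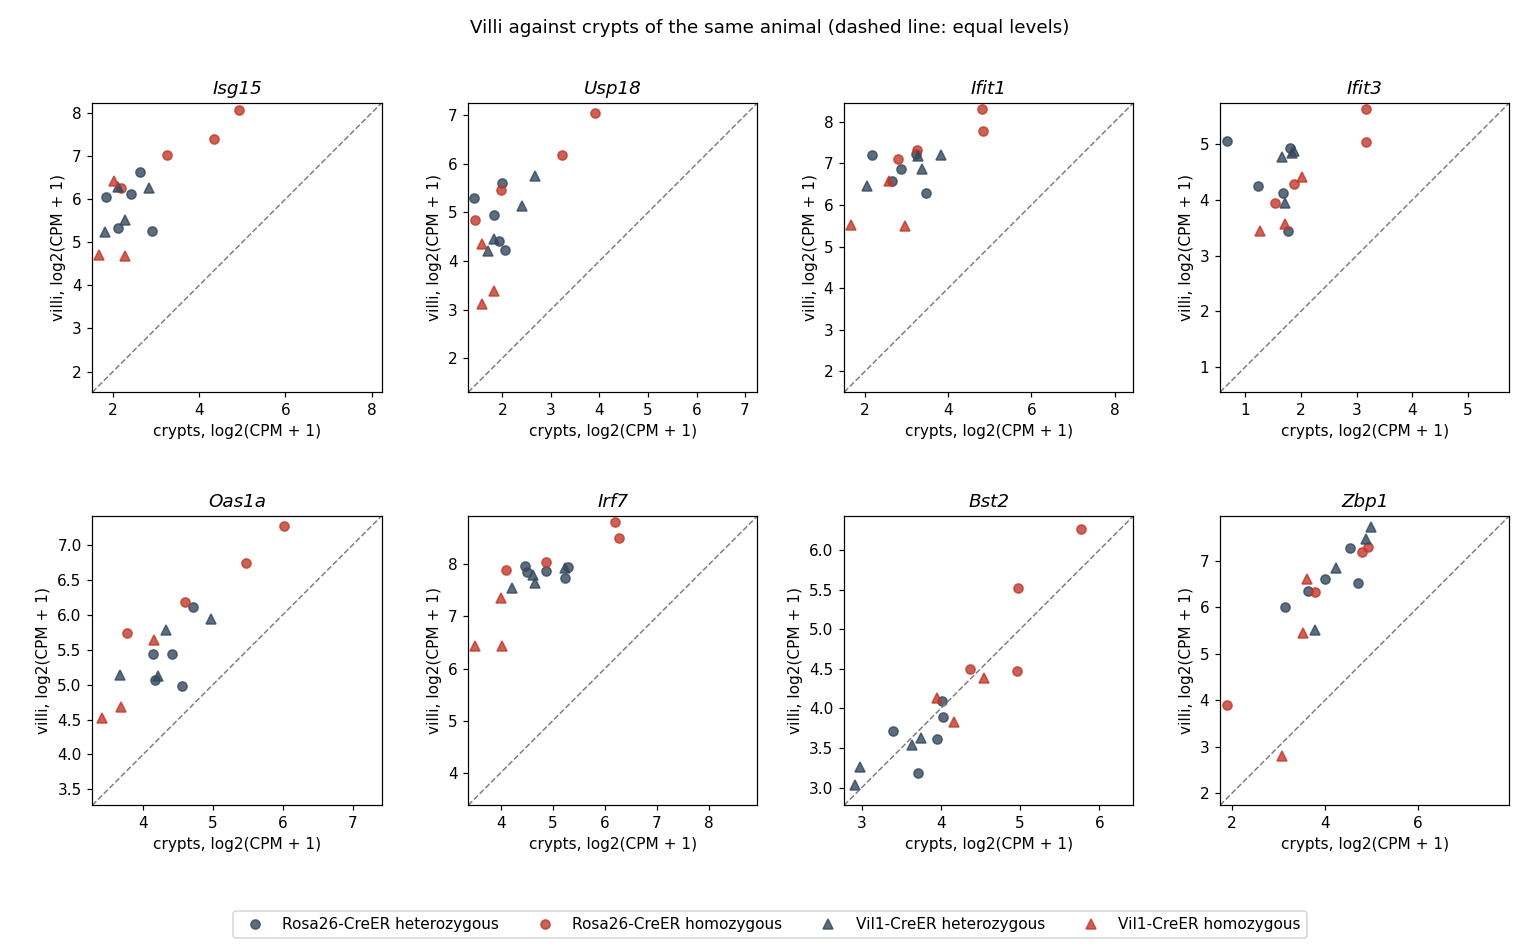
Level of each gene in villi (vertical axis) against crypts (horizontal axis) of the same animal as log2(CPM + 1), with 1 point per animal for 16 animals; circles are Rosa26-CreER, triangles Vil1-CreER, red homozygous and dark blue heterozygous mice. Points lie above the dashed line of equal levels for 7 genes, except 1 triangle for Zbp1, and they scatter around it for Bst2.

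On day 9, most of the 8 genes were called higher in villi of homozygous than of heterozygous Rosa26-CreER mice. In Rosa26-CreER villi 6 of the 8 genes rose, against 15.0% of all genes tested, and none fell, against 18.2%. Their median log2 fold change was 1.13, against -0.01 over all 13579 genes. The largest rise was that of Bst2: heterozygous villi held 16.0, 12.1, 13.8, 11.3 and 8.12 CPM and homozygous villi 45.0, 51.7, 76.0, 21.2 and 21.7 CPM. The groups did not overlap, and the log2 fold change was 1.73 ± 0.34 (edgeR adjusted p = 0.00395). Isg15 was at 97.5, 65.5, 68.0, 37.4 and 39.0 CPM in heterozygous and at 167, 330, 266, 129 and 74.9 CPM in homozygous villi. One homozygous animal lay inside the heterozygous range, and the log2 fold change was 1.57 ± 0.40 (edgeR adjusted p = 0.0134).

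Oas1a rose by a log2 value of 1.23 ± 0.31 (edgeR adjusted p = 0.0121), and its homozygous levels ran from 52.4 to 154 CPM against 30.6 to 67.8 CPM. Usp18 (1.27 ± 0.43, adjusted p = 0.0447), Ifit1 (1.02 ± 0.30, adjusted p = 0.0244) and Irf7 (0.42 ± 0.15, adjusted p = 0.0498) rose less firmly in the same edgeR fit. Usp18 was called without homozygous replicate 4 or 5 or heterozygous replicate 1 and lost without any other library. Irf7 was called without homozygous replicate 4 or 5 and lost without any other library, and Ifit1 was lost without heterozygous replicate 4 or 5 or homozygous replicate 3. Ifit3 (0.61) and Zbp1 (0.31) were not called. The summed T cell markers were lower in the homozygous villi (199 to 357 CPM, against 467 to 1210 CPM), all 6 of them with reads in both groups. The summed myeloid markers overlapped (25.9 to 50.7 CPM, against 10.3 to 89.4 CPM). The part of these cells in the rises was not tested. With a term for libraries with reads of Ddx3y, Isg15, Ifit1, Oas1a and Bst2 stayed called and Usp18 (1.54, adjusted p = 0.0690) and Irf7 (0.51, adjusted p = 0.0913) were lost in edgeR.

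In Rosa26-CreER crypts all 8 fold changes were above 0, but 2 of the 8 genes passed the test, against 8.63% of all genes called higher and 11.6% lower. Bst2 was at 15.1, 9.48, 15.3, 14.5 and 12.1 CPM in heterozygous and at 30.3, 53.3, 30.0 and 19.7 CPM in homozygous crypts. The groups did not overlap and Bst2 rose by 1.31 ± 0.28 (log2, edgeR adjusted p = 0.0117). The share of counts from mitochondrial genes did not overlap either (13.7 to 25.2% in homozygous, 6.24 to 12.4% in heterozygous crypts), and its part in the difference was not tested. Isg15 was at 5.17, 2.60, 4.32, 6.48 and 3.32 CPM in heterozygous and at 19.2, 29.4, 8.47 and 3.54 CPM in homozygous crypts. Homozygous replicate 5 thus lay inside the heterozygous range while the other 3 lay above it. Its log2 fold change of 1.79 ± 0.55 had an edgeR adjusted p of 0.0497 and was called without replicate 5 of the homozygous group (2.12) and lost without any other library. The other 6 genes differed by log2 values of 0.13 (Zbp1) to 1.49 (Ifit3), with edgeR adjusted p from 0.0849. Without homozygous replicate 5, 6 genes were called, and with a term for Ddx3y reads none was (Bst2 1.20, adjusted p = 0.102; Isg15 2.15, adjusted p = 0.112).

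The homozygous animals differed from each other in both tissues. Isg15 in replicates 1, 3, 4 and 5, which are the same animals in both, was at 19.2, 29.4, 8.47 and 3.54 CPM in crypts and at 167, 266, 129 and 74.9 CPM in villi. Replicate 5 was the lowest and replicate 3 the highest of the 4 in both. Eif4g2 in the same crypts was at 91.8, 131, 114 and 129 CPM. Other cell types varied as well in these crypts. The summed enterocyte markers were 4673 CPM in replicate 1 and 1651, 1845 and 1724 CPM in the other 3, and the summed stromal markers were 551, 534, 2557 and 34.1 CPM in replicates 1, 3, 4 and 5. The summed B cell markers were 216, 574, 161 and 26.2 CPM in the same order, against 25.3 to 137 CPM in heterozygous crypts, and the summed myeloid markers 121, 213, 437 and 19.1 CPM, against 11.6 to 49.0 CPM. All 6 stromal and all 5 B cell markers had reads in both groups, and their part in the crypt differences was not tested. Among the difference-of-differences tests, the genotype effect in villi against crypts was called for none of the 8 genes (-0.74 to 0.56 on the log2 scale), where 6.68% of all genes were called higher and 4.86% lower. By edgeR 0 of the 8 had an unadjusted p under 0.05 there and DESeq2 called 0, so the effect was not shown to differ between the tissues.

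At 3 months after deletion by Vil1-CreER, some of the 8 genes were called lower in homozygous than in heterozygous mice, and Bst2 was called higher in both tissues. In Vil1-CreER villi Irf7, Usp18, Ifit1 and Ifit3 fell and Bst2 rose, so 4 of 8 were called lower, against 21.6% of all genes, and 1 of 8 higher, against 20.9%. Irf7 was at 198, 185, 244 and 222 CPM in heterozygous villi and at 85.6 (lowest), 93.0 (median) and 163 CPM (highest of 6) in homozygous villi. The groups did not overlap, and Irf7 fell by 1.00 on the log2 scale (SE 0.19, edgeR adjusted p = 0.000835). Usp18 was at 34.2, 17.4, 52.9 and 20.8 CPM in heterozygous villi and between 7.60 and 19.3 CPM in homozygous villi. It fell by 1.37 (SE 0.33, edgeR adjusted p = 0.00557), with 1 homozygous library above the lowest heterozygous one. Ifit3 fell by 0.98 (SE 0.23, adjusted p = 0.00383) and Ifit1 fell by 0.96 (SE 0.27, adjusted p = 0.0133) in the same edgeR fit.

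Isg15 (-0.60), Oas1a (-0.64) and Zbp1 (-1.42) were lower but not called. Zbp1 spread widely, with 4.85 and 5.97 CPM in 2 homozygous villus libraries and 42.6 to 96.8 CPM in the other 4, against 44.3 to 209 CPM in heterozygous villi. Bst2 rose by 0.59 ± 0.22 (edgeR adjusted p = 0.0434), and this call was kept without heterozygous replicate 3 or homozygous replicate 3 and lost without any other library. The summed T cell markers were lower as well, at 103 to 410 CPM in homozygous and 618 to 1247 CPM in heterozygous villi, with no overlap. They were also lower in homozygous Rosa26-CreER villi (199 to 357 CPM, against 467 to 1210 CPM). The part of these cells in the falls was not tested.

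In Vil1-CreER crypts Zbp1 and Irf7 fell and Bst2 rose, that is 2 of 8 lower, against 17.7% of all genes, and 1 of 8 higher, against 11.6%. Both counts were near the shares of all genes. Zbp1 was at 28.4, 12.8, 30.9 and 18.0 CPM in heterozygous and at 11.3, 7.41 and 10.5 CPM in homozygous crypts, without overlap, and fell by 1.25 (SE 0.35, edgeR adjusted p = 0.0343). Irf7 was at 24.3, 17.5, 36.4 and 23.5 CPM and at 15.1, 10.4 and 15.4 CPM, again without overlap, and fell by 0.93 (SE 0.27, edgeR adjusted p = 0.0381). Bst2 was at 6.57, 6.88, 12.4 and 11.4 CPM in heterozygous and at 22.3, 16.9 and 14.5 CPM in homozygous crypts, and rose by 0.91 ± 0.27 (edgeR adjusted p = 0.0386). None of the 3 calls held without heterozygous replicate 1 or without any 1 of the 3 homozygous libraries. Zbp1 was also lost without heterozygous replicate 3, Irf7 without replicate 4 and Bst2 without replicate 2 of that group. The summed crypt markers were 730 to 1534 CPM in homozygous and 8555 to 11623 CPM in heterozygous crypts, and their part in the changes was not tested. Summed T cell markers overlapped in these crypts (388 to 464 CPM in homozygous, 181 to 605 CPM in heterozygous), and summed myeloid markers did not (20.7 to 35.4 CPM against 8.43 to 14.6 CPM). Mitochondrial genes took 30.4 to 40.3% of the counts in homozygous and 17.5 to 30.8% in heterozygous libraries, and the part of these differences in the changes was not tested. The genotype effect in villi against crypts was called for 0 of the 8 genes by edgeR in Vil1-CreER mice, where 9.38% of all genes were called higher and 6.14% lower; 0 had an unadjusted p under 0.05, and DESeq2 called 0.

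**Figure D3:**
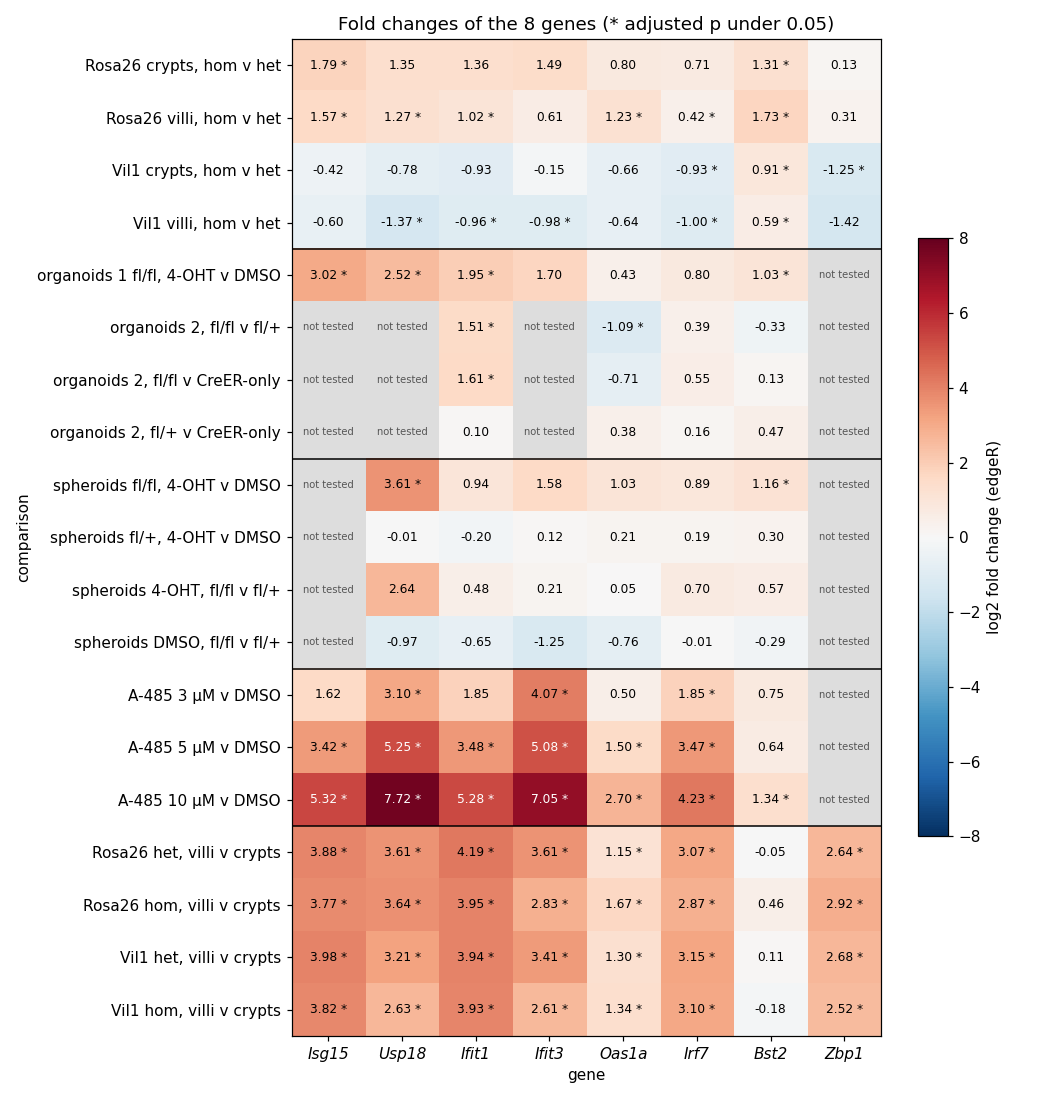
Log2 fold change of each gene (columns) in each of 19 comparisons (rows), red for higher and blue for lower in the group named first; an asterisk marks an edgeR adjusted p under 0.05 and grey cells were not tested because counts were too low. For homozygous against heterozygous mice the Rosa26-CreER values are all positive and the Vil1-CreER values negative except for Bst2, and the A-485 values grow with dose from 3 to 10 µM for every gene tested except Bst2 at 5 µM.

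The opposite signs in the 2 drivers were compared directly in a test that was added after the values had been seen. In villi the genotype effect was larger in Rosa26-CreER than in Vil1-CreER mice for Usp18 by 2.68 ± 0.59 (log2, edgeR adjusted p = 0.0196), Isg15 by 2.22 ± 0.60 (adjusted p = 0.0461), Ifit1 by 2.03 ± 0.44 (adjusted p = 0.0178), Oas1a by 1.91 ± 0.44 (adjusted p = 0.0225) and Irf7 by 1.47 ± 0.25 (adjusted p = 0.00279). These 5 of 8 compare with 2.18% of all genes called in that direction and 1.61% in the other. Bst2 (1.18), Ifit3 (1.63) and Zbp1 (1.77) were not called. The Isg15 call held in 5 of 20 leave-one-out fits, and the count ran from 3, without heterozygous Vil1-CreER replicate 1, to 7, without homozygous Rosa26-CreER replicate 5. In crypts none of the 8 differed by this test (0.32 to 2.21, lowest adjusted p = 0.155 in edgeR, against 0.833% of all genes called higher and 0.949% lower), 6 had an unadjusted p under 0.05 and DESeq2 called 1, Isg15. The driver, the time after deletion and the count table changed together, and they cannot be told apart. Sex balance differed too. Reads of Ddx3y were present in 5 of 5 heterozygous and 2 of 5 homozygous Rosa26-CreER villi. In Vil1-CreER villi they were present in 1 of 4 heterozygous and 1 of 6 homozygous libraries. The part of sex in the driver difference was not tested.

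Organoids are cultures of epithelium: in the first set 4 of the 6 T cell markers had 0 reads in each group, and their sum was at most 0.081 CPM. With 4-OHT, Isg15, Usp18, Ifit1 and Bst2 rose there, which is 4 of the 7 genes tested, against 18.2% of all genes. None fell, against 17.2%. This set held no flox/+ or CreER-only organoids, so deletion of Eif4g2 cannot be told apart from 4-OHT and active Cre. Isg15 was at 0.78, 0.43 and 0.34 CPM with DMSO and at 5.55, 4.98 and 2.43 CPM with 4-OHT in the lines S6070, S6072 and S2080. All 3 lines rose, and the log2 fold change was 3.02 ± 0.43 (edgeR adjusted p = 0.00221). Usp18 was at 0.16, 0.26 and 0.30 CPM with DMSO and at 2.21, 1.51 and 0.42 CPM with 4-OHT, a log2 rise of 2.52 ± 0.64 (edgeR adjusted p = 0.0199). Line S2080 responded least. Ifit1 went from 2.23, 1.35 and 0.57 CPM to 8.25, 5.79 and 2.40 CPM, by 1.95 ± 0.57 (edgeR adjusted p = 0.0335), and Bst2 from 9.32, 10.8 and 7.24 CPM to 23.3, 18.8 and 14.4 CPM, by 1.03 ± 0.21 (edgeR adjusted p = 0.00876).

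Ifit3 (1.70 ± 0.69, adjusted p = 0.0971), Irf7 (0.80) and Oas1a (0.43) were not called by edgeR, and in line S2080 Irf7 went from 14.6 to 11.2 CPM and Oas1a from 4.89 to 3.46 CPM. With the line as a block Ifit3 was called as well (1.82, edgeR adjusted p = 0.00355). Without the 4-OHT library of line S2080, 7 of 7 genes were called, and without the 4-OHT library of line S6070 or S6072 or the DMSO library of S6072, 2 were. Zbp1 had 1 to 8 reads per library and was not tested. The summed crypt markers were 1458 to 1811 CPM with DMSO and 303 to 403 CPM with 4-OHT, and the summed myeloid markers 1.44 to 2.56 CPM and 3.35 to 10.6 CPM, with the macrophage gene Adgre1 and the dendritic gene Itgax at 0 reads in both groups. Their part in the changes was not tested.

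The second organoid set compared deletion of both copies, 1 copy and none, all with 4-OHT. Isg15, Usp18, Ifit3 and Zbp1 had too few reads for the test, with at most 33 reads in a library for any of them. Of the 4 genes tested, Ifit1 was higher in flox/flox than in flox/+ organoids and Oas1a lower. That is 1 of 4 in each direction, near the 22.6% of all genes called higher and 24.3% lower. Ifit1 was at 0.72, 0.71, 1.56 and 0.41 CPM in flox/+, at 0.68, 0.90, 1.13 and 0.37 CPM in CreER-only and at 1.14, 1.18, 3.23 and 4.13 CPM in flox/flox organoids. Replicates 3 and 4 of the flox/flox lines stood above all controls. Ifit1 was higher by 1.51 ± 0.49 against flox/+ (edgeR adjusted p = 0.0213) and by 1.61 ± 0.49 against CreER-only organoids (edgeR adjusted p = 0.0156), where 1 of 4 was called higher and 0 lower, against 21.9% and 23.5% of all genes.

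Oas1a was at 3.22, 4.10, 6.01 and 6.33 CPM in flox/+ and 0.91, 1.69, 4.19 and 2.50 CPM in flox/flox organoids, and fell by 1.09 (SE 0.38, edgeR adjusted p = 0.0295) against flox/+. Against CreER-only it differed by -0.71 ± 0.38 (adjusted p = 0.148 in edgeR). Bst2 did not differ by the test in either comparison (-0.33 ± 0.20 and 0.13 ± 0.20). Both comparisons share the flox/flox libraries. Ifit1 lost its call in both without flox/flox replicate 4 (1.13 and 1.24), and in the first also without flox/flox replicate 3 or flox/+ replicate 2 or 4. The Oas1a call held without flox/flox replicate 3 or flox/+ replicate 1 or 2 and was lost without any other library. With no filter on low counts Ifit3 was called as well, by 2.11 against flox/+ (edgeR adjusted p = 0.00285) and by 2.64 against CreER-only (adjusted p = 0.000385), on 5, 18, 26 and 33 reads in the flox/flox libraries. Isg15 was then called against CreER-only (1.78, edgeR adjusted p = 0.0311), and Oas1a was lost against flox/+ (adjusted p = 0.0743), as it was in a fit of those 2 groups alone (adjusted p = 0.0534). Flox/+ against CreER-only organoids gave 0 calls among the 4 genes by edgeR (0.10 to 0.47), where 0.0492% of all genes were called higher and 0.0633% lower; 1 had an unadjusted p under 0.05 and DESeq2 called 0.

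Of the 6 genes tested in flox/flox fetal spheroids, Usp18 and Bst2 rose with 4-OHT, Usp18 mostly in 3 of the 6 lines, against 9.01% of all genes called higher and 10.0% lower. Usp18 was between 0.05 and 0.66 CPM with DMSO (median 0.35), and with 4-OHT it was 12.3 CPM in line S9488-F, 9.15 CPM in S9488-D and 2.66 CPM in S9484-A but 0.12 to 0.72 CPM in the other 3 lines. The log2 fold change was 3.61 ± 0.89 (edgeR adjusted p = 0.0071). Bst2 rose in 6 of 6 lines, from 6.59 to 13.6 CPM up to 8.30 to 33.4 CPM, by 1.16 ± 0.39 (edgeR adjusted p = 0.0420), and this call was lost without any 1 of 9 of the 12 libraries; it held without 4-OHT replicate 1 or 6 or DMSO replicate 4. Ifit1, Ifit3, Oas1a and Irf7 had log2 fold changes of 0.89 to 1.58 that were not called. Isg15 was not tested: it had 38 and 33 reads with 4-OHT in lines S9488-F and S9484-A, 8 in S9020-A and 0 in the other 3, against at most 3 reads with DMSO. The summed enterocyte markers differed between lines too, from 6.97 to 1591 CPM with 4-OHT and from 454 to 4619 CPM with DMSO, and their part in the responses was not tested.

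In flox/+ spheroids none of the 6 genes changed with 4-OHT (-0.20 to 0.30 on the log2 scale, 0% of all genes called by edgeR, 0 of the 6 with an unadjusted p under 0.05, 0 called by DESeq2). The difference between the 2 genotypes in their response to 4-OHT was called for none of the 6, and the largest was Usp18 with 3.62 ± 1.24 (edgeR adjusted p = 0.155; 1 of 6 with an unadjusted p under 0.05, 0 called by DESeq2; 0.645% of all genes called higher and 0.971% lower). With 4-OHT, flox/flox against flox/+ spheroids gave 0 calls by edgeR, against 4.36% of all genes called higher and 6.13% lower, and 1 by DESeq2, Usp18. With DMSO it gave 0 calls by either tool, 0 of 6 had an unadjusted p under 0.05, and 0% of all genes were called.

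**Figure D4:**
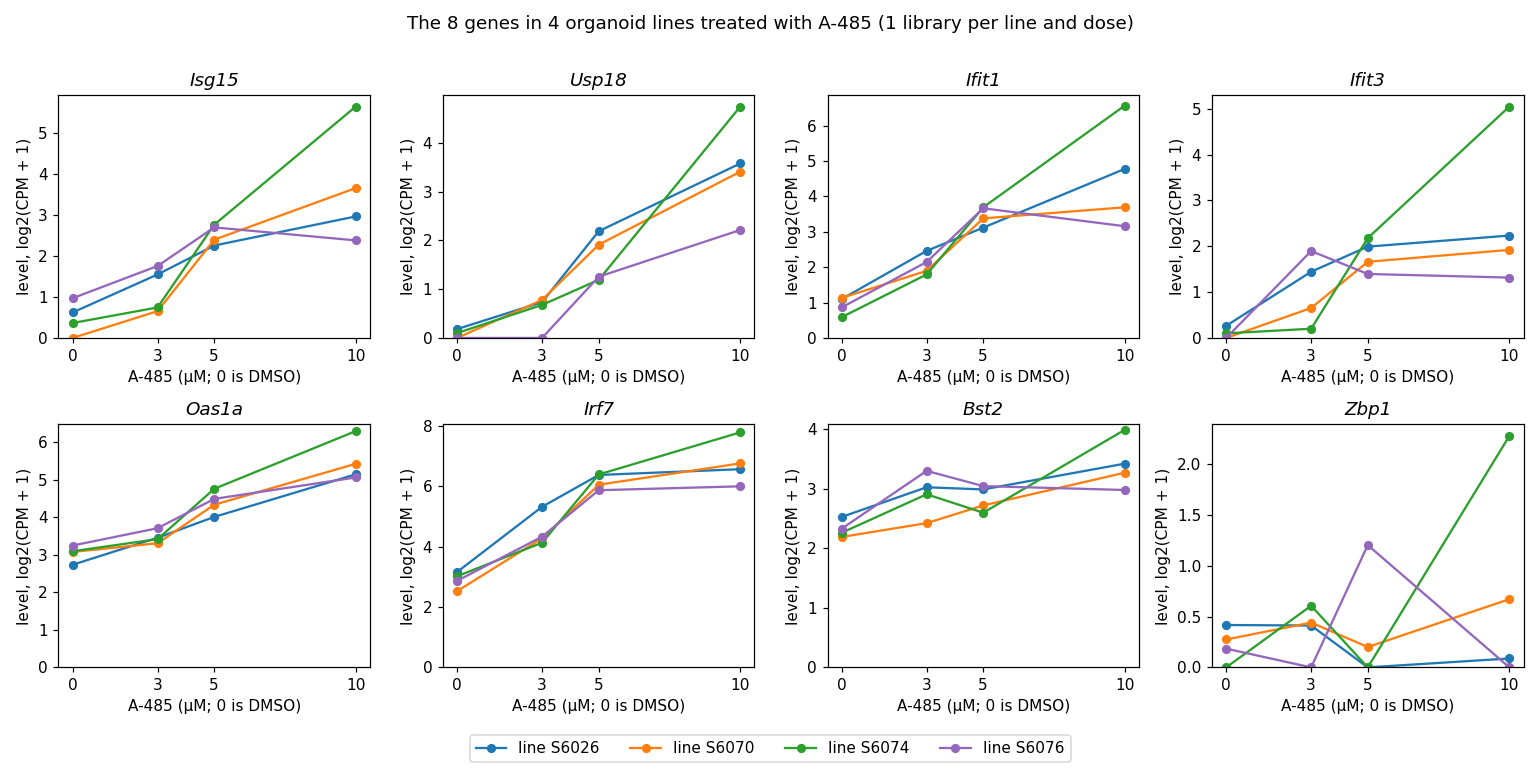
Level of each gene as log2(CPM + 1) against the dose of A-485 (0 is DMSO) with 1 line per organoid line and 1 library per point. The 4 lines rise together up to 5 µM for Isg15, Ifit1, Oas1a and Irf7, and at 10 µM line S6074 lies above the other 3 for all 8 genes.

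With A-485 more of the genes were called at each higher dose. At 3 µM Irf7, Usp18 and Ifit3 rose (3 of 7 tested, against 10.8% of all genes), at 5 µM Isg15, Ifit1 and Oas1a joined them (6 of 7, against 24.4%), and at 10 µM all 7 tested genes rose (against 29.4%). None fell at any dose, against 8.42%, 25.1% and 32.6% of all genes, and the 3 comparisons share the 4 DMSO libraries. The median log2 fold change of the 7 genes was 1.85, 3.47 and 5.28 at 3, 5 and 10 µM, and that of all 13724 genes was 0.00, -0.02 and -0.05. Irf7 was at 7.93, 4.76, 7.09 and 6.29 CPM with DMSO in lines S6026, S6070, S6074 and S6076. It stood at 38.8, 18.3, 16.5 and 19.1 CPM at 3 µM, at 81.6, 65.0, 82.6 and 57.2 CPM at 5 µM and at 93.3, 107, 219 and 62.6 CPM at 10 µM. No library with A-485 overlapped the DMSO libraries, and the log2 fold changes were 1.85 ± 0.36, 3.47 ± 0.37 and 4.23 ± 0.38 (edgeR adjusted p = 0.00184, 1.25e-06 and 6.97e-08).

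Isg15 had 0 to 0.96 CPM with DMSO and 0.57 to 2.37 CPM at 3 µM, ranges that overlapped. At 5 µM it was at 3.76, 4.25, 5.77 and 5.47 CPM and at 10 µM at 6.78, 11.6, 48.8 and 4.20 CPM, with log2 fold changes of 3.42 ± 0.83 (edgeR adjusted p = 0.00264) and 5.32 ± 0.86 (adjusted p = 4.09e-05). Ifit1 was at 0.50 to 1.19 CPM with DMSO, 7.68 to 11.9 CPM at 5 µM and 7.92 to 93.9 CPM at 10 µM (3.48 ± 0.66 and 5.28 ± 0.69; edgeR adjusted p = 0.000398 and 4.99e-06). Oas1a went from 5.64 to 8.47 CPM with DMSO to 15.1 to 26.0 CPM at 5 µM and 32.3 to 77.2 CPM at 10 µM (2.70 ± 0.26 at 10 µM), with no overlap at either dose (edgeR adjusted p = 9.13e-05 and 6.88e-08). Bst2 rose at 10 µM, by 1.34 ± 0.28 (edgeR adjusted p = 0.000427), from 3.57 to 4.77 CPM up to 6.90 to 14.9 CPM.

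Usp18 and Ifit3 were almost silent with DMSO, at 3 and 4 reads over the 4 libraries, so their fitted fold changes rest on few reads and depend on how the model treats low counts. The pooled ratio to DMSO was 10.0 for Usp18 at 3 µM (28 reads; exact 95% interval 3.09 to 51.5), 45.3 at 5 µM (142 reads; 15.2 to 222) and 261 at 10 µM (829 reads; 89.1 to 1269). For Ifit3 it was 18.0 (67 reads; 6.70 to 67.9), 38.5 (161 reads; 14.7 to 143) and 163 (688 reads; 63.2 to 598). These intervals cover counting error and not the spread between lines. In edgeR the adjusted p was 0.0428, 0.000137 and 8.41e-07 for Usp18 and 0.0326, 0.00253 and 9.05e-05 for Ifit3. The 3 µM calls of both genes were lost without several single libraries, and with no filter on low counts (Usp18 adjusted p = 0.0534, Ifit3 adjusted p = 0.103 in edgeR). In a fit of the DMSO and 3 µM libraries alone, neither gene was tested. Leaving out DMSO replicate 2, 3 or 4 or the 3 µM library of line S6026 left Irf7 as the sole call at that dose. All calls at 5 and 10 µM were kept in every leave-one-out fit.

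Line S6074 had the highest levels at 10 µM. Its Isg15, Ifit1 and Ifit3 were at 48.8, 93.9 and 32.1 CPM, and the next highest lines were at 11.6, 26.4 and 3.71 CPM. Without that library the log2 fold changes at 10 µM were 4.06 for Isg15, 4.08 for Ifit1 and 5.12 for Ifit3. Zbp1, not tested in cultures, had 68 reads in it and 0 to 10 reads in the other 3 lines. The order of the lines changed with dose, since line S6026 was highest at 3 µM for Irf7 (38.8 CPM). By tests between neighbouring doses, added after the values had been seen, Usp18, Oas1a and Irf7 rose from 3 to 5 µM (3 of 7, against 11.5% of all genes called higher and 13.0% lower) and Usp18, Ifit1 and Oas1a from 5 to 10 µM (3 of 7, against 6.44% and 12.4%). For Oas1a the steps were 1.01 ± 0.25 and 1.20 ± 0.25 (edgeR adjusted p = 0.00677 and 0.00179). The second step of Ifit1 (1.80 ± 0.56, edgeR adjusted p = 0.0325) was lost with the line as a block (1.42, adjusted p = 0.0974) and without the 10 µM library of line S6074 (0.60). From 5 to 10 µM, 1 gene was called without that library, and 6 without the 10 µM library of line S6076. Cell type markers moved over the same doses: the summed crypt markers went from 6353 to 7848 CPM with DMSO to 64.0 to 85.6 CPM at 10 µM, and their part in the changes was not tested. All 6 T cell markers were at 0 reads at 10 µM, and the summed myeloid markers, with reads of 2 of 6 genes in every A-485 group, were at 4.45 to 6.64 CPM against 0.77 to 1.55 CPM with DMSO.

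The other genes of the pathway were followed in lists of 7 interferons, 6 receptor subunits, 9 signalling and transcription factors, 9 nucleic acid sensors, 35 other interferon-stimulated genes and 10 genes of MHC class I presentation. Transcripts of the interferons themselves had few reads. Over all 92 libraries Ifnb1 had 1 read, Ifna4 3, Ifnl2 3, Ifnl3 4 and Ifne 18, Ifnk had 74 reads in 35 libraries, and Ifng, made by lymphocytes, had 176 reads in 29 libraries. Ifng was higher in villi than in crypts of heterozygous Vil1-CreER mice (1.53 ± 0.62, edgeR adjusted p = 0.0479). At these depths a change of an interferon transcript was not detectable in the cultures. Receptor and signalling genes were higher in villi, where Ifnlr1, the epithelial type III receptor subunit, exceeded crypts by 2.61, 2.14, 2.17 and 2.26 (log2, edgeR adjusted p at most 1.7e-05) in heterozygous and homozygous Rosa26-CreER and heterozygous and homozygous Vil1-CreER mice, and Ifnar1 by 0.90, 0.72, 0.59 and 0.70. Of the 35 other interferon-stimulated genes, 28, 27, 27 and 26 were higher and 3, 3, 2 and 4 lower in villi in the same order of groups, against 36.4%, 32.4%, 32.7% and 33.1% of all genes higher and 40.6%, 38.6%, 35.2% and 36.3% lower. Ifitm3, a membrane antiviral protein, was among those lower in villi of heterozygous mice, by log2 values of -4.67 and -4.53.

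**Figure D5:**
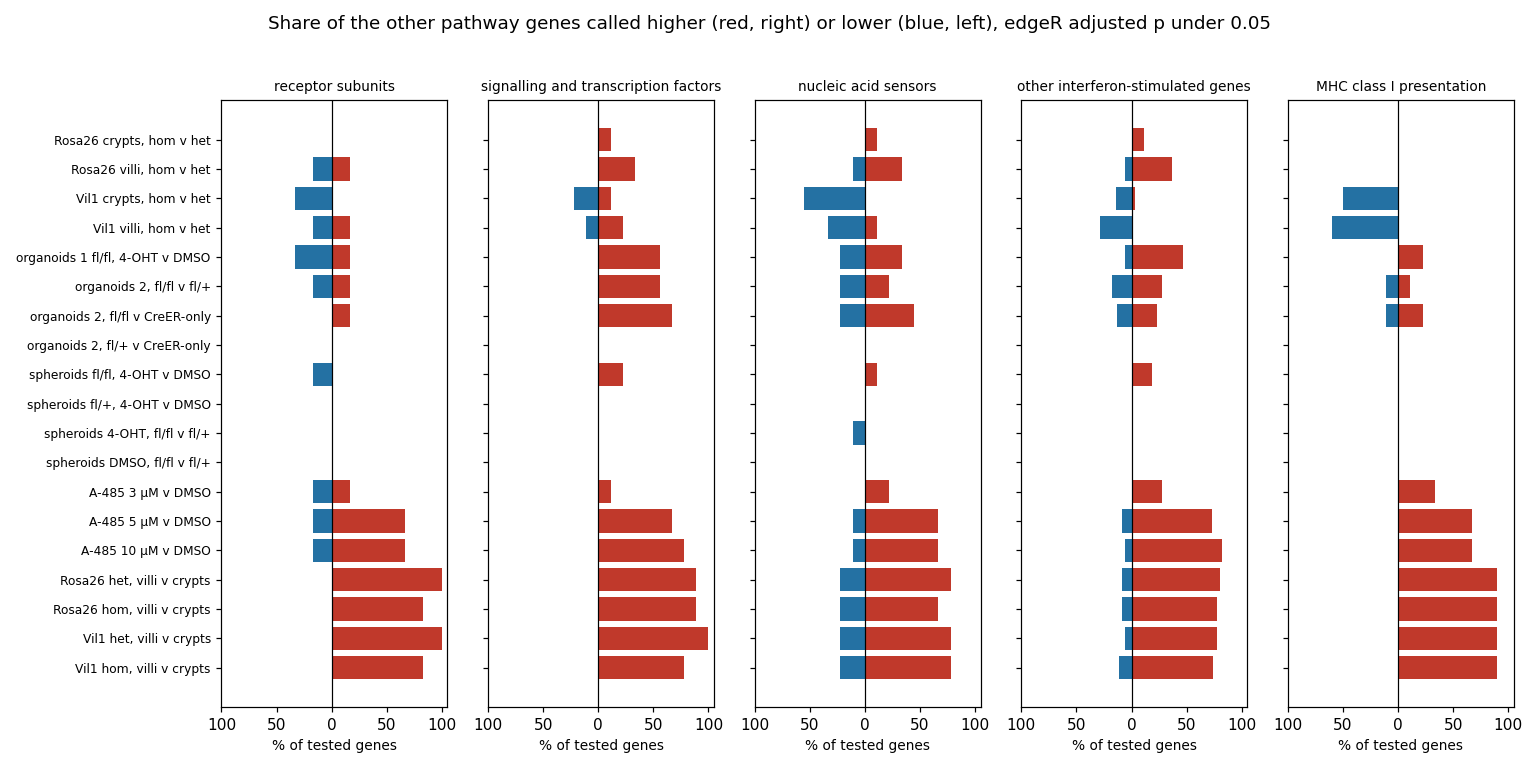
Share of tested genes of 5 pathway lists called higher (red, right) or lower (blue, left) by edgeR at an adjusted p under 0.05 in 19 comparisons; each panel is 1 list. In villi against crypts and at 5 and 10 µM A-485 most genes of every list are higher, as 27 of 33 other interferon-stimulated genes at 10 µM show, and in Vil1-CreER mice more sensors, other interferon-stimulated genes and MHC class I genes were called lower than higher.

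The wider list was counted in the comparisons with deletion of both copies, beside the shares of all genes called higher and lower by edgeR. In Rosa26-CreER villi 13 of 35 other interferon-stimulated genes rose and 2 fell (median 0.56; 15.0% and 18.2% of all genes), among them Oas2 (2.69), Ifit2 (1.82) and Herc6 (1.67). In Rosa26-CreER crypts 4 of 35 rose and 0 fell (median 0.92; 8.63% and 11.6% of all genes), a share of rises near that of all genes, with Trim30a (1.92) and Rtp4 (1.60) as the largest folds. In Vil1-CreER villi 0 rose and 10 of 35 fell (median -0.42; 20.9% and 21.6% of all genes), among them the nuclear body gene Sp100 (-2.65) and the chemokine Cxcl10 (-1.90), and 6 of 10 MHC class I genes fell. In Vil1-CreER crypts 1 of 35 rose and 5 fell (11.6% and 17.7% of all genes), so neither share exceeded that of all genes, and 5 of 10 MHC class I genes fell, with Psmb8 at -1.42. The first organoid set had 15 of 32 higher and 2 lower (median 0.92; 18.2% and 17.2% of all genes), with Oas3 (3.98), Apol9b (3.67) and Rtp4 (2.91) leading. Its Stat2 (0.59, adjusted p = 0.033) and Irf9 (1.11, adjusted p = 0.0069), which take part in the ISRE-binding complex, rose in edgeR. In flox/flox spheroids 6 of 32 rose with 4-OHT and 0 fell (9.01% and 10.0% of all genes), among them Oas3 (4.13), Rtp4 (3.35) and Xaf1 (3.14), and Irf9 rose by 1.31 (edgeR adjusted p = 0.0089). With 4-OHT, flox/flox against flox/+ spheroids gave 0 of 32 higher and 0 lower (4.36% and 6.13% of all genes). The genotype difference in the response to 4-OHT was called for 0 of 32 (0.645% of all genes called higher and 0.971% lower). In the second organoid set 6 of 22 were higher and 4 lower in flox/flox than in flox/+ organoids, near the shares of all genes (22.6% and 24.3%), with Ddx60 (1.58) higher and Ifitm3 (-1.93) and Ifit2 (-1.45) lower. Against CreER-only organoids 5 of 22 were higher and 3 lower (21.9% and 23.5% of all genes). Of 9 signalling genes, 5 were higher than in flox/+ and 6 than in CreER-only organoids, and 0 were lower. Stat2 was higher by 0.60 and 0.78 (edgeR adjusted p = 0.00057 and 6.5e-05). Irf9 was higher by 1.01 against CreER-only (edgeR adjusted p = 0.0076) and not called against flox/+ (0.63, adjusted p = 0.064).

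With A-485, 9, 24 and 27 of 33 other interferon-stimulated genes rose and 0, 3 and 2 fell at 3, 5 and 10 µM, against 10.8%, 24.4% and 29.4% of all genes higher and 8.42%, 25.1% and 32.6% lower. Their median log2 fold change was 0.71, 2.23 and 3.23. Gbp2, Oas2 and Oas3 led the list at each of the 3 doses, and no fold is given for them because they had hardly any reads or none with DMSO. Ifnlr1 rose by 1.48 and 1.88 and Ifnar1 by 0.56 and 0.77 at 5 and 10 µM. Stat2 (1.64 and 2.31) and Irf9 (1.88 and 2.65) rose at both doses, with edgeR adjusted p from 0.00111 down to 2.47e-08. Of 9 MHC class I genes tested, 3, 6 and 6 rose and 0 fell at the 3 doses, against the same shares of all genes.

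Flox/+ spheroids and flox/+ organoids of the second set, both with 4-OHT, compare fetal with adult epithelium with the same genotype and treatment. They also differ in line and in form of culture, so fetal or adult origin cannot be told apart from these. Ifit3 was higher in spheroids by 3.74 ± 0.71, Bst2 by 1.63 ± 0.35 and Oas1a by 1.04 ± 0.25 (edgeR adjusted p = 0.00218, 0.0039 and 0.00656), so 3 of 5 tested were higher, against 25.1% of all genes called higher and 22.8% lower. Ifit3 had 2, 6, 3 and 11 reads in the organoids and 11, 62, 67, 184 and 81 reads in the spheroids. The spheroid lines were not uniform in their crypt markers, whose sum was 101 to 186 CPM in lines S9488-I, S9612-J and S9612-G but 1685 and 6033 CPM in S9612-A and S9020-C, and their part in the difference was not tested.

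Across the 92 libraries, after the mean of each group had been removed, 7 of the genes varied together and Bst2 less so. The correlation of each gene with the mean of the other 7 was 0.83 for Isg15, 0.81 for Usp18, 0.80 for Ifit3, 0.78 for Oas1a, 0.76 for Irf7, 0.71 for Ifit1, 0.59 for Zbp1 and 0.44 for Bst2, and the closest pair was Ifit1 with Irf7 (0.82). Among 13589 other genes with a mean of at least 1 CPM, the 10 most like the mean of the 8 were Parp9 (0.85), Oas3 (0.85), Oasl2 (0.84), Rtp4 (0.84), Dhx58 (0.82), Irgm2 (0.81), Ddx60 (0.81), Ifi44 (0.79), Irgm1 (0.79) and Parp12 (0.79). All these are Pearson coefficients of log2(CPM + 1) over libraries that share animals, lines and sequencing sets, given as a description.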

How the data were processed

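RNA of mouse crypts, villi, organoids and fetal spheroids was sequenced from poly(A)-selected, strand-specific libraries. The authors deposited raw read counts per gene in 4 tables with no normalization, and per the submitters' processing notes reads were aligned with HISAT2 2.0.5 and the builds named are GRCm38 and mm10. The counting program, the annotation and the use of strand are not given in the sources used here, so overlapping genes and near-identical copies are uncertain. All 92 libraries were used, and library totals ran from 8652040 to 37611126 counts.

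Each comparison was fitted in edgeR 4.0.16 (R 4.3.3; limma 3.58.1 installed) with filterByExpr by group, TMM, robust quasi-likelihood dispersions and Benjamini-Hochberg adjustment over all tested genes, with calls at an adjusted p under 0.05. The fits used the 2 groups compared, or all groups of the second organoid set, the spheroids and the A-485 set. The levels (CPM) come from TMM over all libraries and the folds from the libraries of each fit. The calculation was tested on simulated data. Alternatives were DESeq2 1.42.0 (Wald test, and its size factors in edgeR), no filter beyond 1 read, each library left out, replicate blocks, other sets of libraries and, for Rosa26-CreER mice, terms for animal-number series and for Ddx3y reads. The 8 genes, the lists, the named-gene rule (all 8; up to 3 called list genes with the largest change per comparison, and key pathway genes) and the tests were chosen with earlier results of these data known, and 4 comparisons were added after the values were seen. Values of 1 list gene are not reported here. Where nothing says that libraries came from separate cultures, p-values measure the spread between libraries.

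Numbers shared by libraries pair them where the labels name the same animal or line: villi with crypts, the first organoid set, the spheroids within a genotype and the A-485 set, where deviations of paired libraries correlated at -0.04 to 0.89. Rosa26-CreER crypts (lowest 0.055), the other tissue comparisons and the second organoid set share numbers alone.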

Additional observations from a re-analysis of the deposited data

Results flagged for a closer look

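Within groups of 4 to 6 libraries, 9 values of the 8 genes lay farther from their neighbour than Dixon's criterion allows at the 5% level, out of 112 sets of values, and chance gives about 5% of such sets. At 10 µM A-485 the library of line S6074 was highest for Isg15 (48.8 CPM, next 11.6), Ifit3 (32.1 CPM, next 3.71) and Zbp1 (3.86 CPM, next 0.59). At 3 µM line S6026 was highest for Irf7 (38.8 CPM, next 19.1). Ifit1 was highest in flox/+ spheroids with 4-OHT in line S9612-A (11.3 CPM, next 3.89) and in flox/flox spheroids with 4-OHT in line S9484-A (17.3 CPM, next 6.18). In Vil1-CreER villi Ifit3 was lowest in heterozygous replicate 4 (14.4 CPM, next 26.2) and highest in homozygous replicate 1 (20.2 CPM, next 13.7). Bst2 was lowest in CreER-only replicate 4 of the second organoid set (2.24 CPM, next 3.54).

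The genotype effect in villi (homozygous against heterozygous) differed between Rosa26-CreER and Vil1-CreER mice by an interaction test, with log2 differences of 2.22 for Isg15, 2.68 for Usp18, 2.03 for Ifit1, 1.91 for Oas1a and 1.47 for Irf7. The driver, the time after deletion and the count table changed together and cannot be told apart. Sex balance by reads of Ddx3y differed as well, and its part was not tested.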

How the results depend on the processing

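No fold of a called gene reversed its direction under an alternative that tested it. Folds that were not called were not checked for this. Of 369 folds of single called genes under alternatives other than leaving out a library, 336 kept their direction and side of the threshold and 33 were no longer called, and of 776 leave-one-out folds 659 and 117. Folds that an alternative could not test are not among these, such as Usp18 and Ifit3 at 3 µM A-485 with the 2 groups alone. Among counts of called genes, 101 of 117 stayed within 1.5 times.

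With no filter on low counts, the number of the 8 genes called was 1 in Rosa26-CreER crypts (2 with the filter), 1 in Vil1-CreER crypts (3), 3 in flox/flox against CreER-only organoids (1), 1 in flox/flox spheroids (2), 1 at 3 µM A-485 (3), 5 in flox/+ spheroids against organoids (3) and 2 for the driver difference in villi (5). It also ended the calls of Ifit1 (edgeR adjusted p = 0.0731) and Usp18 (0.119) in Rosa26-CreER villi, of Ifit1 in the first organoid set (0.101), of Ifit1 in Vil1-CreER villi (0.0565), of Zbp1 for villi against crypts in homozygous Vil1-CreER mice (0.112) and of Ifit1 from 5 to 10 µM A-485 (0.108). The DESeq2 Wald test called 4 in Rosa26-CreER crypts, 1 in flox/flox against flox/+ spheroids with 4-OHT (0 in edgeR), 5 from 3 to 5 µM A-485 (3) and 1 for the driver difference in crypts (0). In Rosa26-CreER crypts the term for the series of animal numbers left 1 call and that for Ddx3y reads 0, and with the 2 groups alone flox/flox against flox/+ organoids gave 1 call (2). The cause was not tested.

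A replicate block by number, where numbers alone are shared, gave 1 call in Rosa26-CreER crypts (Isg15 1.26, edgeR adjusted p = 0.153), 5 in Rosa26-CreER villi (Irf7 lost), 3 in Vil1-CreER crypts (Bst2 lost, Ifit1 gained), 6 in Vil1-CreER villi (Bst2 lost, Isg15 and Oas1a gained), and 2, 2 and 0 in the second organoid set, where Oas1a was gained against CreER-only. The block by line or animal changed no call other than those given for Ifit3, Ifit1 and Zbp1.

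Leaving out 1 library at a time, the number called ran from 1 to 6 in Rosa26-CreER crypts, 3 to 6 in Rosa26-CreER villi, 0 to 3 in Vil1-CreER crypts, 4 to 6 in Vil1-CreER villi, 2 to 7 in the first organoid set, 0 to 3 in both flox/flox comparisons of the second set, 1 to 3 in flox/flox spheroids, 0 to 1 in flox/flox against flox/+ spheroids with 4-OHT (1 without flox/flox replicate 1 or 5), 1 to 3 at 3 µM A-485, 6 to 7 for villi against crypts in homozygous Vil1-CreER mice, 3 to 4 in flox/+ spheroids against organoids, 2 to 3 from 3 to 5 µM, 1 to 6 from 5 to 10 µM, and 3 to 7 in villi and 0 to 3 in crypts for the driver difference (3 in crypts without homozygous Rosa26-CreER replicate 5). Few reads limited Isg15, Usp18, Ifit3 and Zbp1 in cultures.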
